A study of Mus musculus with 6 samples.

Results

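The genes described here mark monocytes and macrophages, the mononuclear phagocytes, in RNA from mouse spleen that had been enriched for B lymphocytes. They are a list of 36 gene symbols: 7 monocyte genes, 8 genes of red pulp macrophages, 4 of marginal zone macrophages, the 3 chains of complement C1q, and 14 genes that mononuclear phagocytes have in common. All 36 were found by symbol among the 16511 genes of the expression table. The list names genes of cells that a B cell enrichment is meant to remove, and B cells make some of them too. In bulk RNA, fewer cells of a type and less RNA per cell cannot be told apart.

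The series holds 6 libraries, 3 labelled GPR40-WT and 3 labelled GPR40-KO, with replicates numbered 1 to 3 in each. GPR40 is the fatty acid receptor encoded by Ffar1. The sample labels say KO where the series' design text says BKO, and the strain, age and sex of the mice, the way the gene was deleted and any promoter driving a Cre could not be read from the sources at hand. No treatment is stated for either group. The labels do not say that the replicates came from separate mice, so a p-value here measures the spread among libraries, part or all of which may be technical.

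The targeted gene went against the labels. Ffar1 was at 0, 0 and 0 counts in libraries labelled WT, where a count of 0 allows up to 3, and at 273, 392 and 304 counts in libraries labelled KO. Ms4a1, which encodes the B cell antigen CD20, averaged 493 ± 109 CPM (SD, n = 3) in the libraries labelled WT and 1165 ± 89.4 CPM (SD, n = 3) in those labelled KO. This B cell gene was present in every library and rose in the libraries labelled KO, with a log2 fold change of 1.24 ± 0.16 (adjusted p = 0.00396) in edgeR's quasi-likelihood test. Every direction below is that of the labels as given. Library totals lay between 14907079 and 15461409 counts, so depth differed little between the groups.

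Monocytes leave the bone marrow and reach the spleen with the blood, and they are divided into classical cells that carry Ly6C and CCR2 and non-classical cells that patrol vessels and carry CX3CR1. Red pulp macrophages clear aged red cells and recycle their iron, marginal zone macrophages take up particles and microbes from the blood with scavenger receptors, and macrophages of both kinds make C1q, which opens the classical complement pathway. The transcription factor PU.1, encoded by Spi1, is needed for the development of both lineages and of B cells, and it binds purine-rich DNA around the letters GGAA.

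The promoters of the 5 genes that passed the test below, and of C1qb and C1qc, are shown so that members with fold changes in one direction can be read beside each other at their start sites. Each window runs from 250 bases before to 50 bases after a transcript start, the first that RefSeq's promoter table for GRCm38.p6 lists for the gene, 5′ to 3′ on the gene's strand. For Ccr2, Ly6c2 and C1qc that start lies inside the gene's bounds given below, so it is not the outermost one. In the sequences, capitals mark the letters GAGGAA or their reverse complement TTCCTC, a form of the PU.1 site. The windows are chr1:171018676-171018975 on the plus strand for Fcgr4, chr15:75111922-75112221 on the minus strand for Ly6c2, chr13:37050195-37050494 on the minus strand for F13a1, chr9:124101933-124102232 on the plus strand for Ccr2, chr3:96293920-96294219 on the minus strand for Fcgr1, chr4:136886151-136886450 on the minus strand for C1qb and chr4:136892865-136893164 on the minus strand for C1qc.
Fcgr4: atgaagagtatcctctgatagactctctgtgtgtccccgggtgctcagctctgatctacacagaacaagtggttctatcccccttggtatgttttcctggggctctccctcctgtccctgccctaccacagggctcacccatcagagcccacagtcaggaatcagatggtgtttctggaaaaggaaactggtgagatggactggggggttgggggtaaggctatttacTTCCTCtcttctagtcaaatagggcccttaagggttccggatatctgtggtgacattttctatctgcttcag
Ly6c2: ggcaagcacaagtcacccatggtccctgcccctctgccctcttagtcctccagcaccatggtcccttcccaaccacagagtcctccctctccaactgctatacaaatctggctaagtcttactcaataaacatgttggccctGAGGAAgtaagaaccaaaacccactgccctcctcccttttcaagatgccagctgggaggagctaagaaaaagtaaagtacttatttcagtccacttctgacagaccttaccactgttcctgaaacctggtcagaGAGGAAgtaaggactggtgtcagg
F13a1: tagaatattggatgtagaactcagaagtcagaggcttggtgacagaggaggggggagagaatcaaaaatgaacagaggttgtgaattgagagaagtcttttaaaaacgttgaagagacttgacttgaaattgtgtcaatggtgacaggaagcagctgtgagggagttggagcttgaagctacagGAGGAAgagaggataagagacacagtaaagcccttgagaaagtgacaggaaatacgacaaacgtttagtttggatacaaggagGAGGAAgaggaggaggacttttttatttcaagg
Ccr2: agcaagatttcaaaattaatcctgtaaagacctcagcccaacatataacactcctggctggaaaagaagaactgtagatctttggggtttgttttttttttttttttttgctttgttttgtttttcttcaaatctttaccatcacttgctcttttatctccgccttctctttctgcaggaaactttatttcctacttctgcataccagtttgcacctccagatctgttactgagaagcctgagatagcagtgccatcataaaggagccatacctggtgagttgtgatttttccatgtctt
Fcgr1: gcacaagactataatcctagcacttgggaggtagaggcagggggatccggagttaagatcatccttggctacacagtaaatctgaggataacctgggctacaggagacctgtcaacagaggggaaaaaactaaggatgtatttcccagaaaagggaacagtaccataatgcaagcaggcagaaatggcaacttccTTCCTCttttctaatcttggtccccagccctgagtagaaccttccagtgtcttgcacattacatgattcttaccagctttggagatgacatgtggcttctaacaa
C1qb: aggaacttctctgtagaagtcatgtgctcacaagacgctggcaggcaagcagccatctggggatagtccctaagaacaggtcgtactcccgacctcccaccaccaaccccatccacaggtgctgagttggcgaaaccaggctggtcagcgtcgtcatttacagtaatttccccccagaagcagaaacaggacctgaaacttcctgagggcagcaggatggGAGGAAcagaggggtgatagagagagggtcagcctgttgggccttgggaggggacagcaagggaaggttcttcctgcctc
C1qc: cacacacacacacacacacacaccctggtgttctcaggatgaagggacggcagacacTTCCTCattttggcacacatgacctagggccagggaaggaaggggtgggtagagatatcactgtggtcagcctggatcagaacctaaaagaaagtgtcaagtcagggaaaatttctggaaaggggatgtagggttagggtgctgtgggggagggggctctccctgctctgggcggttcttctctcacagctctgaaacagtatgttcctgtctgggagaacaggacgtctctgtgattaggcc

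In these windows the letters begin at base -22 from the listed start of Fcgr4, at -108 and +27 in Ly6c2, at -66 and +18 in F13a1, at -55 in Fcgr1, at -30 in C1qb and at -193 in C1qc, and the window of Ccr2 holds none. The table of promoters had an entry for 26 of the 36 members. Of these 26, 16 held GAGGAA on either strand (61.5%), against 28.3% of all 27025 promoters of the same length. By role, 5 of 7 monocyte genes held it, 2 of 5 red pulp genes, 1 of 3 marginal zone genes, 2 of 2 C1q genes and 6 of 9 shared genes. The C/EBP letters TTGCNNAA were found in 7.69% of the members' promoters and 10.8% of all, the AP-1 letters TGANTCA in 7.69% and 7.93%, and the MAF letters TGCTGA in 19.2% and 19.1%. Each motif was searched on both strands and on its own, so matches of different motifs may share bases, and a promoter was counted once per motif. A match in these windows describes letters and no binding was measured.

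Per length, the shared genes stood highest. In the authors' TPM, which is scaled to transcript length, Lyz2, the lysozyme of phagocytes, ranged from 1083 to 6689 TPM over the 6 libraries with a mean of 3352, and Apoe, a lipid carrier, from 2237 to 3991 TPM with a mean of 3256. Ctsb, a lysosomal protease, averaged 990.1 TPM and Lgals3, the lectin galectin-3, 724 TPM. C1qc led the C1q chains with a mean of 313 TPM, above C1qb at 231 and C1qa at 189.8 TPM. Ly6c2 led the monocyte genes at 286 TPM, and Slc40a1 the red pulp genes at 215 TPM. The lowest members were Cd163 at 3.53, Cx3cr1 at 3.50 and Ace at 0.682 TPM. Apart from Apoe and Ctsb, neighbours in this order overlapped in range over the 6 libraries, which pool both labels. Within every single library, however, Ctsb stood above Lgals3, C1qc above C1qb and C1qb above C1qa. The order of neighbours was not tested.

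Between the groups, the members lay on one side. All 35 members that passed the filter on low counts had a negative log2 fold change of the libraries labelled KO over those labelled WT, from -2.31 in Siglec1 to -0.05 in Cd163, with a median of -1.40 against 0.01 over all 12234 genes tested. In 31 of the 35 the value was at least 2-fold lower, against 9.48% of all genes tested. In edgeR's test at an adjusted p of 0.05, 5 members fell (Fcgr4, F13a1, Ccr2, Fcgr1 and Ly6c2), none rose, and 30 did not pass, where 4.81% of all genes tested fell and 4.55% rose. Another 8 members had an adjusted p between 0.05 and 0.1, and 22 had an unadjusted p under 0.05, against 15.3% of all genes in that direction. The 22 members whose groups did not overlap are to be read against 15.9% of all genes tested.

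The count of 5 depended on which libraries were used and on how their numbers were treated. Same-numbered libraries tended to deviate together (see the pairs in the plot of 8 genes by replicate number). Of the 35 members, 31 were lower in the library labelled KO in all 3 pairs, against 27.2% of all genes. The labels state no pairing, so values with the block, here and below, rest on an assumption taken from these same data. With the replicate number as a block in the same test, 29 members fell and none rose, where 12.8% of all genes fell and 7.96% rose. DESeq2 gave 22 members that fell, where 11.4% of all genes did. The 6 members that did not pass with the block were Adgre1, Cd163, Marco, Timd4, Apoe and Cybb. Leaving out the library labelled WT 2 gave 18 members that fell, while leaving out WT 1, WT 3, KO 2 or KO 3 gave 1 and leaving out KO 1 gave 4. The number of all genes called, in either direction, shifted as well. It was 1146 with all libraries, 2030 without WT 2, 704 without WT 1 and 528 without WT 3. Without KO 1 it was 380, without KO 2 264 and without KO 3 623.

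**Figure D1:**
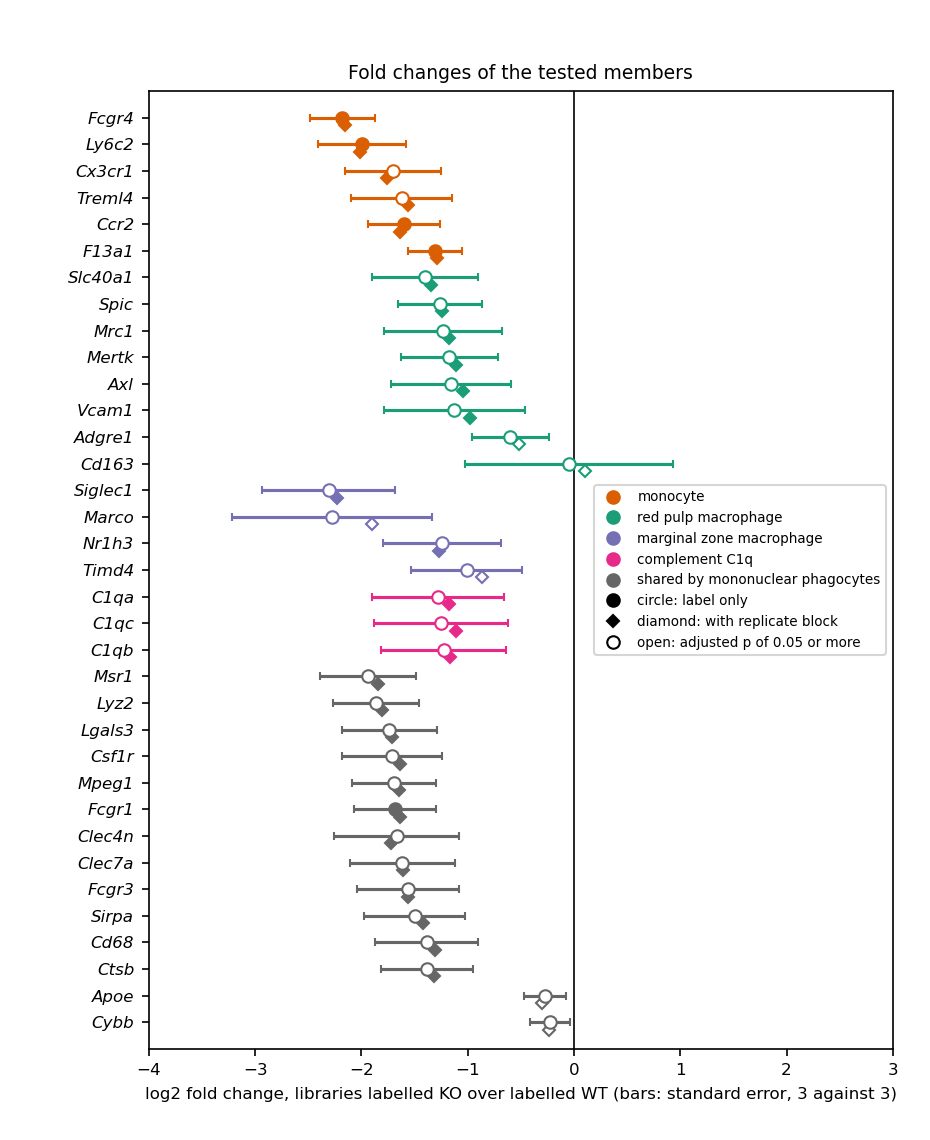
Log2 fold changes of the 35 tested members, libraries labelled KO over those labelled WT, by role, with circles and standard error bars from the test on the label alone and diamonds from the test with the replicate block. Filled marks have an adjusted p under 0.05; 5 circles and 29 diamonds are filled, and Cd163, at -0.05, is the circle nearest 0.

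**Figure D2:**
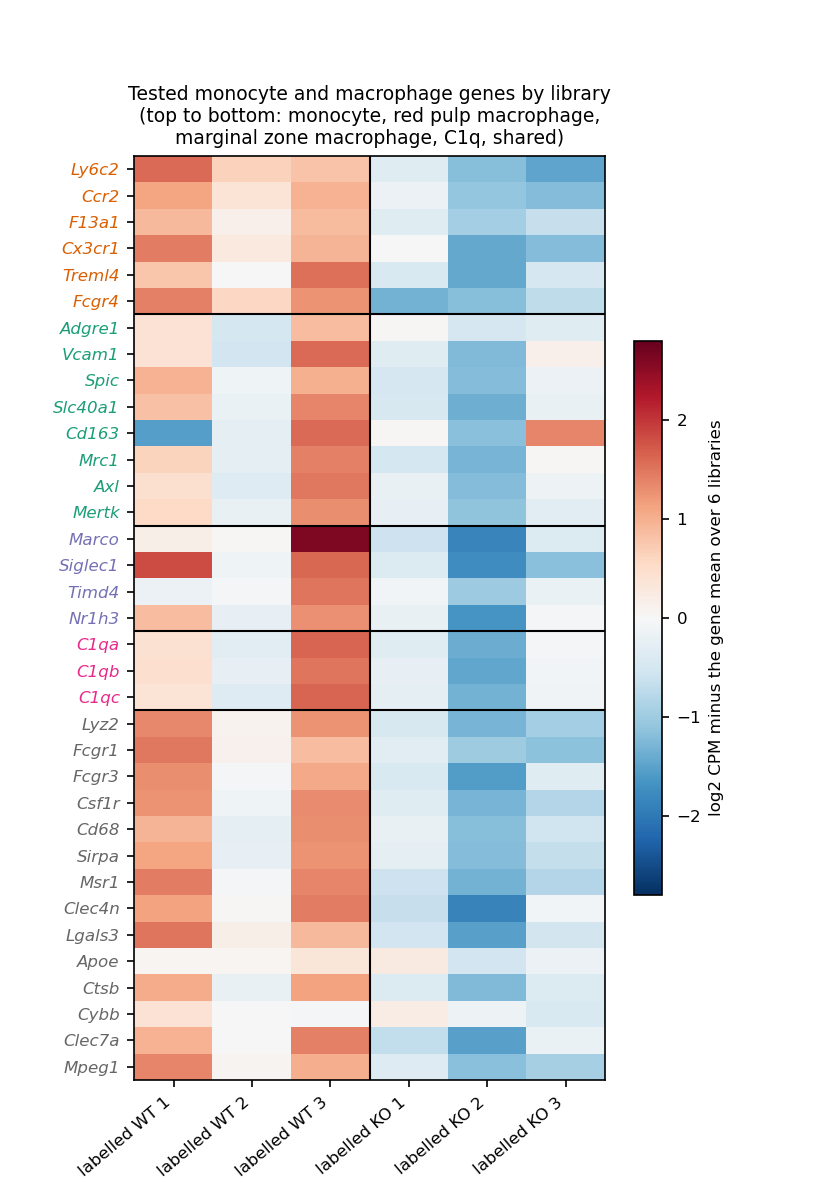
Log2 CPM of each tested member minus its own mean over the 6 libraries, one row per gene and one column per library, with the groups parted by a black line. The library labelled WT 2 is lowest of its group in 31 of 35 genes and the library labelled KO 2 in 30 of 35.

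All 6 tested monocyte genes had a lower level in each library labelled KO than in any labelled WT, and 4 of them fell, as did all 6 with the replicate block. Counts here and in the lists below are to be read against all genes tested. Of those, 15.9% were lower in each library labelled KO than in any labelled WT. In the test 4.81% fell and 4.55% rose, and with the block 12.8% and 7.96% did. Values are CPM, the count scaled to library size, in the order of replicates 1, 2 and 3. Fcgr4 (chromosome 1, 171018926 to 171029761 in GRCm38), the activating Fc receptor of non-classical monocytes for IgG2a and IgG2b, measured 15.8, 8.87 and 14.2 CPM in the libraries labelled WT and 2.36, 2.60 and 3.62 CPM in those labelled KO. The lowest library labelled WT lay above the highest labelled KO. Its log2 fold change was -2.18 ± 0.30 (adjusted p = 0.00545, edgeR), and it kept a value under the threshold when any single library was left out, with a highest adjusted p of 0.0371.

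Ly6c2 (chromosome 15, 75108161 to 75112066), one of the genes for the surface protein Ly6C of classical monocytes, measured 212, 109.9 and 123 CPM in the libraries labelled WT and 55.4, 30.9 and 25.3 CPM in those labelled KO. The library labelled WT 1 stood highest, and the groups did not overlap. The log2 fold change was -1.99 ± 0.41 (adjusted p = 0.0450, edgeR). Its counts were not all whole, and how many of its reads could belong to near-identical genes was not tested. The paralogue Ly6c1, which encodes another Ly6C protein, measured 19.9, 3.22 and 6.01 CPM in the libraries labelled WT and 3.23, 1.73 and 8.98 CPM in those labelled KO, with overlapping groups and an adjusted p of 0.488.

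Ccr2 (chromosome 9, 124101918 to 124109140), the chemokine receptor that takes classical monocytes out of the marrow, measured 75.8, 46.6 and 70.1 CPM in the libraries labelled WT and 31.5, 16.8 and 15.2 CPM in those labelled KO. Each library labelled WT was above each labelled KO, and the gene fell by 1.60 ± 0.34 on the log2 scale (adjusted p = 0.0411, edgeR). F13a1 (chromosome 13, 36867178 to 37050244), the A chain of coagulation factor XIII, which monocytes and macrophages hold in the cytosol, measured 107, 63.5 and 107 CPM in the libraries labelled WT and 45.7, 30.0 and 36.8 CPM in those labelled KO. The libraries labelled WT 1 and WT 3 were alike and WT 2 was nearer to those labelled KO, and the log2 fold change was -1.31 ± 0.25 (adjusted p = 0.0300, edgeR).

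The calls of Ly6c2, Ccr2 and F13a1 were lost when single libraries were left out. Without the library labelled KO 2 the adjusted p was 0.158 for Ly6c2, 0.147 for Ccr2 and 0.109 for F13a1, and without WT 1, WT 3 or KO 3 it lay above 0.05 for each. F13a1 had an adjusted p of 0.0512 without KO 1 and Ly6c2 one of 0.0548 without WT 2. The remaining 2 tested monocyte genes missed the threshold with all libraries. Cx3cr1, the fractalkine receptor, measured 15.5, 6.90 and 11.0 CPM in the libraries labelled WT and 5.66, 2.13 and 2.48 CPM in those labelled KO, with a log2 fold change of -1.70 ± 0.45 (adjusted p = 0.0560, and 0.00170 with the replicate block). Treml4, a receptor of non-classical monocytes and some macrophages that binds dying cells, measured 75.1, 43.8 and 127 CPM in the libraries labelled WT and 32.2, 16.2 and 31.4 CPM in those labelled KO, with a log2 fold change of -1.62 ± 0.48 (adjusted p = 0.0971, and 4.26e-04 with the block). In both genes the groups did not overlap, and WT 2 and KO 2 were the lowest libraries of their groups.

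Ace, the angiotensin-converting enzyme, which non-classical monocytes and endothelium make, did not pass the filter. Its counts were 24, 0 and 1 under the label WT and 1, 0 and 148 under the label KO. In the library labelled KO 3, 79.5% of its counts were assigned to a single transcript. In that library the summed CPM of 11 listed genes of stroma and endothelium, 7 of them tested, was 641, against 187 to 279 in the others, and Col3a1, a collagen of stromal cells, had 225 CPM against 0.202 to 0.906. Their part in the Ace value was not tested.

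Neutrophil markers were lower in the libraries labelled KO as well. All 18 of them were lower in each library labelled KO than in any labelled WT, 4 fell (against 4.81% of all genes tested) and 9 fell with the block, and their median log2 fold change was -3.91. Their summed level ranged from 815 to 6623 CPM in the libraries labelled WT and from 142 to 298 CPM in those labelled KO, with none of the 18 at 0 in a whole group. The library labelled WT 1, highest in 5 of 6 monocyte genes, also held the most neutrophil RNA. The part of neutrophils in the monocyte values was not tested.

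The Fc receptors for IgG, which bind the constant part of antibodies, did not all go one way. The activating receptors were lower in the libraries labelled KO, though Fcgr3 did not pass the test. The inhibitory one, which is also the Fc receptor of B cells, was higher. Fcgr1 (chromosome 3, 96282909 to 96293969), the high-affinity receptor, measured 31.5, 12.3 and 20.5 CPM in the libraries labelled WT and 9.16, 5.72 and 5.09 CPM in those labelled KO, with WT 2 nearest to the libraries labelled KO and no overlap. It fell by 1.69 ± 0.39 on the log2 scale (adjusted p = 0.0439, edgeR), and the adjusted p was 0.170 without the library labelled KO 2, 0.112 without KO 3, 0.0966 without WT 3, 0.0667 without KO 1 and 0.0552 without WT 1.

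Fcgr3 (chromosome 1, 171051169 to 171065915), the low-affinity activating receptor, measured 114, 45.3 and 97.0 CPM in the libraries labelled WT and 34.6, 15.6 and 36.6 CPM in those labelled KO, with a log2 fold change of -1.56 ± 0.48 (adjusted p = 0.107, and 4.13e-05 with the block). Its groups did not overlap, and part of its counts were not whole. Fcgr2b (chromosome 1, 170960558 to 170976071), the inhibitory receptor and the Fc receptor of B cells, measured 59.3, 101 and 73.6 CPM in the libraries labelled WT and 166, 167 and 154 CPM in those labelled KO. Each library labelled KO was above each labelled WT, and the gene rose with a log2 fold change of 1.05 ± 0.19 (adjusted p = 0.0211, edgeR). The 3 genes Fcgr2b, Fcgr3 and Fcgr4 are neighbours on chromosome 1 and belong to one gene family, and how many reads could be assigned to more than one of them was not tested.

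None of the 8 red pulp macrophage genes passed the test, with a median log2 fold change of -1.17, while 6 fell with the replicate block. Slc40a1, the iron exporter ferroportin, measured 594, 295 and 864 CPM in the libraries labelled WT and 246, 130.2 and 289 CPM in those labelled KO. Its groups did not overlap, although WT 2 stood only just above KO 3. Its log2 fold change was -1.40 ± 0.50 (adjusted p = 0.148, and 5.26e-05 with the block). Spic, the transcription factor required for red pulp macrophages, measured 68.0, 32.3 and 69.6 CPM in the libraries labelled WT and 25.1, 15.0 and 30.9 CPM in those labelled KO, with a log2 fold change of -1.26 ± 0.39 (adjusted p = 0.105, and 1.72e-04 with the block). Here too WT 2 was barely above KO 3.

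Vcam1, an adhesion molecule of red pulp macrophages and stroma, measured 271, 141 and 614 CPM in the libraries labelled WT and 160.4, 86.1 and 224 CPM in those labelled KO. The library labelled WT 3 was highest and WT 2 lay below KO 1 and KO 3, so the groups overlapped. The log2 fold change was -1.13 ± 0.66 (adjusted p = 0.340, and 0.00962 with the block), and it was -0.39 without WT 3. Adgre1, which encodes the macrophage antigen F4/80, measured 204, 110.3 and 279.8 CPM in the libraries labelled WT and 159, 112 and 122 CPM in those labelled KO, with a log2 fold change of -0.60 ± 0.36 (adjusted p = 0.342, and 0.315 with the block). Only replicates 1 and 3 were lower in the library labelled KO, and replicate 2 was not. Without WT 3 the log2 fold change was -0.26.

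Mrc1, the mannose receptor, measured 145, 77.4 and 249 CPM in the libraries labelled WT and 67.0, 37.9 and 95.6 CPM in those labelled KO and overlapped between the groups. The receptors Axl and Mertk take up dying cells. Axl measured 257, 146 and 522 CPM in the libraries labelled WT and 162, 81.5 and 170.2 CPM in those labelled KO, with overlap, and Mertk measured 112, 66.3 and 186 CPM in the libraries labelled WT and 65.2, 34.7 and 62.1 CPM in those labelled KO, without overlap. Their log2 fold changes were -1.23 ± 0.55 for Mrc1, -1.16 ± 0.57 for Axl and -1.17 ± 0.45 for Mertk, with adjusted p-values of 0.226, 0.257 and 0.171 in edgeR's test and of 7.30e-05, 0.0323 and 0.00545 with the block. Without the library labelled WT 3 the log2 fold changes were -0.73 for Mrc1, -0.54 for Axl and -0.72 for Mertk. Cd163, the scavenger receptor for haemoglobin bound to haptoglobin, measured 2.27, 5.45 and 19.6 CPM in the libraries labelled WT and 6.67, 2.93 and 16.9 CPM in those labelled KO. Its level was low and spread over the same range in both groups, with a log2 fold change of -0.05 ± 0.98 (adjusted p = 0.981), which was 1.20 without WT 3 and 0.11 with the block.

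The library labelled WT 3 was the highest of its group in 8 of 8 red pulp genes and 3 of 3 C1q genes. It also had the highest summed level of 14 erythroid genes, 8640 CPM against 825 and 925 in the other libraries labelled WT and 436 to 1704 in those labelled KO. No erythroid gene passed the test in either direction, and 1 fell with the block, where 12.8% of all genes tested did. Only 1 of 14 was lower in each library labelled KO than in any labelled WT, against 15.9% of all genes tested. Without WT 3 the median log2 fold change of the red pulp genes was -0.63. The part of erythroid RNA in these values was not tested.

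**Figure D3:**
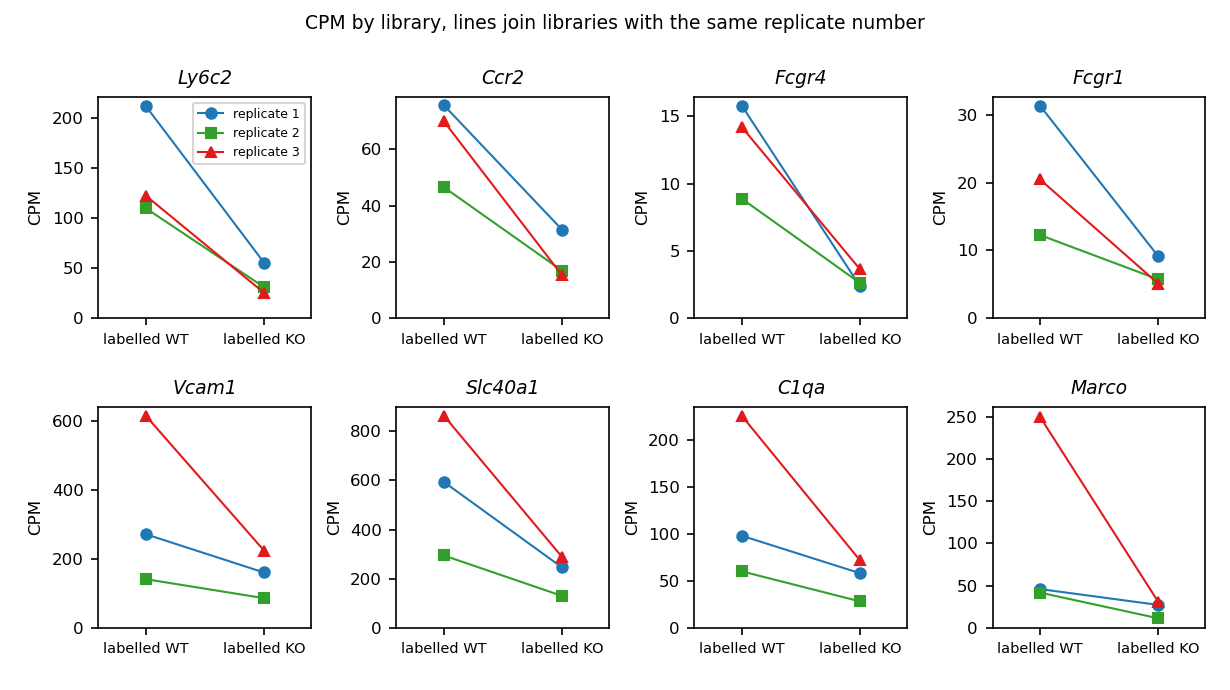
CPM of 8 members in each library, with lines joining libraries of the same replicate number and each axis starting at 0. All lines go down from the libraries labelled WT to those labelled KO; in Vcam1, C1qa and Marco the library labelled WT 3, at 614, 226 and 249.9 CPM, stands far above the other libraries.

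The 4 genes of marginal zone macrophages had a median log2 fold change of -1.76, and of -1.59 with the replicate block. None passed the test, and 2 fell with the block. Siglec1, the sialic acid receptor CD169 of metallophilic macrophages, measured 59.4, 15.4 and 50.8 CPM in the libraries labelled WT and 12.9, 4.99 and 7.44 CPM in those labelled KO. WT 2 was close to KO 1 but above it, and the log2 fold change was -2.31 ± 0.62 (adjusted p = 0.0810, and 3.31e-04 with the block). Marco, a scavenger receptor of marginal zone macrophages, measured 46.0, 41.8 and 249.9 CPM in the libraries labelled WT and 27.2, 11.4 and 31.1 CPM in those labelled KO. The log2 fold change of -2.28 ± 0.94 (adjusted p = 0.204, and 0.191 with the block) was -0.91 without the library labelled WT 3.

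Timd4, a receptor for phosphatidylserine on dying cells, measured 3.11, 3.42 and 9.84 CPM in the libraries labelled WT and 3.30, 1.73 and 3.08 CPM in those labelled KO, at a low level and with overlap. Nr1h3, which encodes the liver X receptor alpha that these macrophages need, measured 34.9, 16.5 and 46.8 CPM in the libraries labelled WT and 16.6, 6.12 and 18.8 CPM in those labelled KO, with WT 2 below KO 1 and KO 3. Their log2 fold changes were -1.01 ± 0.52 (adjusted p = 0.245) and -1.24 ± 0.55 (adjusted p = 0.215, and 3.07e-04 with the block). That of Timd4 was -0.27 without the library labelled WT 3.

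The chains of C1q had nearly the same fold change. C1qb, C1qc and C1qa lie side by side on chromosome 4 (136880126 to 136886200, 136889801 to 136892936 and 136895916 to 136898844), and each encodes one of the polypeptides from which the C1q molecule is assembled. C1qa measured 98.2, 60.3 and 226 CPM in the libraries labelled WT and 58.3, 28.2 and 71.9 CPM in those labelled KO. C1qb measured 131, 80.4 and 265 CPM in the libraries labelled WT and 80.3, 34.2 and 89.4 CPM in those labelled KO. C1qc measured 153, 91.9 and 364 CPM in the libraries labelled WT and 99.3, 46.9 and 110.2 CPM in those labelled KO. In every chain WT 3 was highest, KO 2 was lowest, and WT 2 was below KO 3, so the groups overlapped for each.

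None of the 3 chains passed the test. The log2 fold changes were -1.28 ± 0.62 for C1qa, -1.22 ± 0.59 for C1qb and -1.25 ± 0.63 for C1qc, with adjusted p-values of 0.256, 0.252 and 0.273 in edgeR's test. With the replicate block all 3 fell, with adjusted p-values of 0.00722, 0.00601 and 0.0464. Without the library labelled WT 3 the log2 fold changes were -0.58, -0.63 and -0.51, so that this library alone moved them by more than 1.5 times.

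Of the 14 genes that mononuclear phagocytes have in common, 1 fell (Fcgr1, above) and 12 fell with the replicate block, and their log2 fold changes had a median of -1.64. Lyz2 (chromosome 10, 117277541 to 117282272) measured 3056, 1291 and 2887 CPM in the libraries labelled WT and 881, 486 and 627 CPM in those labelled KO, with every library labelled WT above every one labelled KO. Its log2 fold change of -1.86 ± 0.41 just missed the threshold (adjusted p = 0.0513, and 4.16e-04 with the block). Csf1r, the receptor for the growth factor on which the lineage depends, measured 417, 161 and 436 CPM in the libraries labelled WT and 138, 71.4 and 99.5 CPM in those labelled KO, with a log2 fold change of -1.71 ± 0.47 (adjusted p = 0.0871, and 0.00523 with the block). In both, WT 2 was the lowest of its group.

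Msr1, the scavenger receptor A, measured 121, 43.1 and 114 CPM in the libraries labelled WT and 29.6, 17.7 and 25.1 CPM in those labelled KO, with a log2 fold change of -1.94 ± 0.45 (adjusted p = 0.0578). Mpeg1, the pore-forming perforin-2, measured 1485, 605 and 1151 CPM in the libraries labelled WT and 447, 254 and 301 CPM in those labelled KO, with a log2 fold change of -1.69 ± 0.40 (adjusted p = 0.0590). Lgals3 measured 1069, 426 and 717 CPM in the libraries labelled WT and 263, 132 and 269 CPM in those labelled KO, with a log2 fold change of -1.74 ± 0.45 (adjusted p = 0.0746). None of these 3 overlapped between the groups, and all 3 fell with the replicate block, with adjusted p-values of 7.62e-04, 1.80e-04 and 5.92e-05.

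Clec4n and Clec7a, which encode the fungal receptors Dectin-2 and Dectin-1, had log2 fold changes of -1.67 ± 0.59 and -1.61 ± 0.49 (adjusted p = 0.146 and 0.108). Sirpa, the receptor that reads the signal of CD47 on intact cells, measured 521, 206 and 581 CPM in the libraries labelled WT and 205, 105 and 152 CPM in those labelled KO. WT 2 was hardly above KO 1, and the log2 fold change was -1.50 ± 0.47 (adjusted p = 0.114). Ctsb had a log2 fold change of -1.38 ± 0.43 (adjusted p = 0.111), and Cd68, a lysosomal membrane protein, one of -1.39 ± 0.48 (adjusted p = 0.140) with overlapping groups. All 5 fell with the block, with adjusted p-values of 2.03e-05 for Clec4n, 1.74e-05 for Clec7a, 0.00943 for Sirpa, 8.81e-05 for Ctsb and 0.0116 for Cd68.

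Apoe and Cybb stood apart from the other shared genes. Apoe measured 1998, 2005 and 2414 CPM in the libraries labelled WT and 2287, 1325 and 1707 CPM in those labelled KO. The library labelled KO 1 was above WT 1 and WT 2, and the log2 fold change was -0.27 ± 0.20 (adjusted p = 0.420, and 0.263 with the block). Cybb, the catalytic subunit of the phagocyte NADPH oxidase, which B cells also make, measured 594, 444 and 439 CPM in the libraries labelled WT and 522, 405 and 337 CPM in those labelled KO. Its groups overlapped too, and the log2 fold change was -0.23 ± 0.19 (adjusted p = 0.483, and 0.0792 with the block). When single libraries were left out the log2 fold change ran from -0.50 to -0.11 for Apoe and from -0.40 to -0.07 for Cybb.

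Summed over each role, the monocyte genes gave 504, 280 and 452 CPM in the libraries labelled WT and 173, 98.6 and 125 CPM in those labelled KO. The red pulp genes gave 1654, 874 and 2804 CPM against 892, 500.1 and 1010.0 CPM. The C1q genes gave 383, 233 and 854 CPM against 238, 109 and 271 CPM. The mean under the label WT was thus 3.12 times that under the label KO for monocyte genes, 2.22 times for red pulp genes and 2.38 times for C1q genes. In same-numbered pairs the ratio was 2.91, 2.84 and 3.62 for monocyte genes. It was 1.85, 1.75 and 2.78 for red pulp genes and 1.61, 2.13 and 3.15 for C1q genes, lower in each pair. Marginal zone genes had a ratio of means of 3.996, above that of the monocyte genes. Their pairs gave 2.39, 3.18 and 5.92, so only replicate 1 was below the monocyte genes. In the longer lists described below, the ratio of means was 1.42 for other monocyte genes and 2.598 for other macrophage genes. Monocyte genes thus did not have the largest ratio throughout.

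Within a library, the summed monocyte genes were 0.304, 0.320 and 0.161 of the red pulp genes in the libraries labelled WT and 0.194, 0.197 and 0.123 in those labelled KO. Against the C1q genes they stood at 1.32, 1.20 and 0.529 and at 0.727, 0.901 and 0.459. For both ratios, the library labelled WT 3 lay within the range of those labelled KO, and the groups overlapped. C1q genes kept a nearly constant share of the red pulp genes, 0.231, 0.266 and 0.305 in the libraries labelled WT and 0.267, 0.219 and 0.269 in those labelled KO. Marginal zone genes were 0.0867, 0.0883 and 0.127 of the red pulp genes against 0.0673, 0.0484 and 0.0598, without overlap. These ratios are given as a description, with no test.

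**Figure D4:**
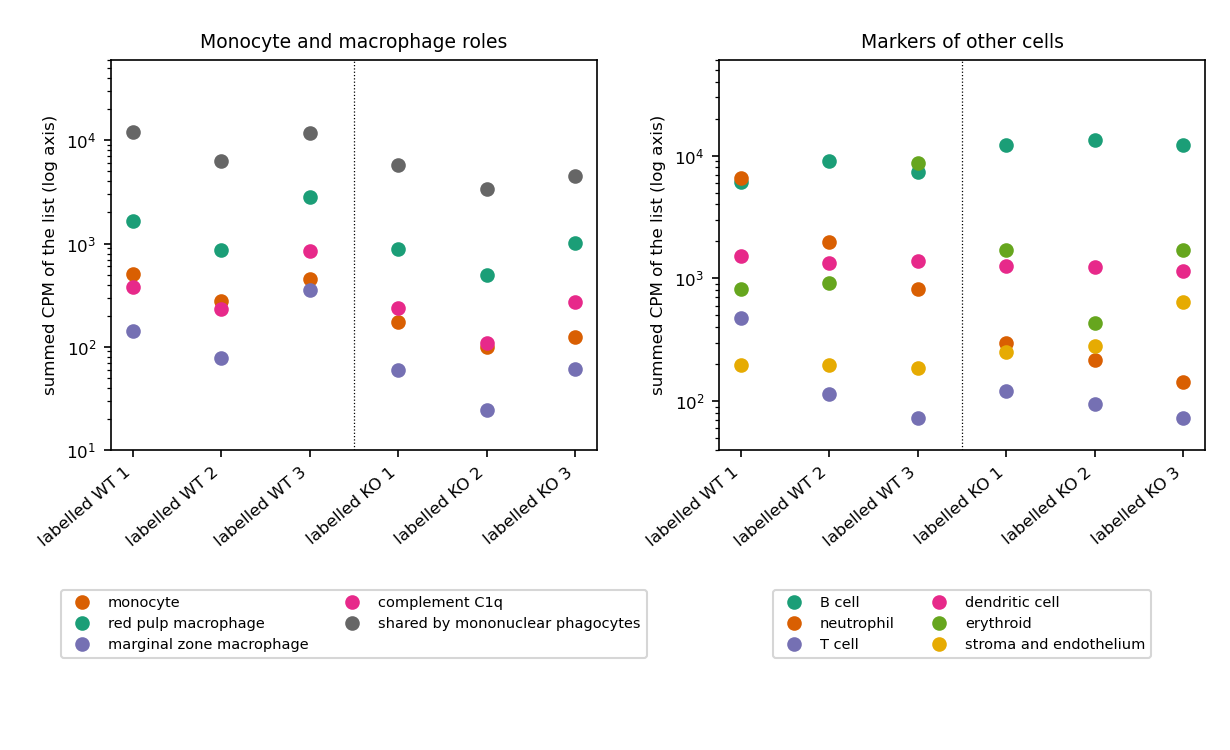
Summed CPM of each role (left) and of markers of other cells (right) in each library, on log axes, one point per list and library with the groups parted by a dotted line. Monocyte genes lie between 280 and 504 CPM in the libraries labelled WT and between 98.6 and 173 CPM in those labelled KO; erythroid genes peak in the library labelled WT 3 and neutrophil genes in WT 1.

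Further genes of the same cells were counted from longer lists, beside 4.81% of all genes tested that fell and 4.55% that rose. With the block these shares were 12.8% and 7.96%. Of 20 other macrophage genes tested, 2 fell, 1 rose and 17 did not pass, with a median log2 fold change of -1.40. With the block 18 fell and 1 rose. Cd14, the lipopolysaccharide coreceptor, measured 18.2, 15.2 and 14.9 CPM in the libraries labelled WT and 5.52, 2.33 and 4.82 CPM in those labelled KO and fell by 1.93 ± 0.31 on the log2 scale (adjusted p = 0.0103). Maf, a transcription factor of tissue macrophages, fell by 1.52 ± 0.33 (adjusted p = 0.0435), and Pld4, a lysosomal nuclease that B cells and plasmacytoid dendritic cells also make, rose by 1.01 ± 0.19 (adjusted p = 0.0255). Gpnmb, a glycoprotein of lipid-laden macrophages, had a log2 fold change of -2.36 ± 0.50 (adjusted p = 0.0507, and 5.66e-04 with the block).

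Of 25 other monocyte genes tested, 5 fell, none rose and 20 did not pass, with a median of -1.06, and 14 fell with the block. Sirpb1c, a signal-regulatory protein, measured 16.1, 6.77 and 11.6 CPM in the libraries labelled WT and 2.63, 1.20 and 1.54 CPM in those labelled KO and fell by 2.68 ± 0.43 on the log2 scale (adjusted p = 0.00936). The calcium-binding protein gene S100a4 fell by 1.79 ± 0.32 (adjusted p = 0.0258), Ms4a6c, a membrane protein gene, by 1.16 ± 0.23 (adjusted p = 0.0262) and the chemokine gene Ccl9 by 1.93 ± 0.36 (adjusted p = 0.0303).

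Partners of the Fc receptors and of C1q were 15 tested genes, of which 2 fell, 1 rose and 12 did not pass, with a median of -1.30, while 10 fell and 1 rose with the block. Cd93, once described as a C1q receptor, measured 218, 182 and 229 CPM in the libraries labelled WT and 130.5, 123 and 103 CPM in those labelled KO and fell by 0.82 ± 0.12 on the log2 scale (adjusted p = 0.00703). Itgax, the integrin chain CD11c of complement receptor 4, fell by 1.23 ± 0.23 (adjusted p = 0.0171), and Fcgr2b is the gene that rose. Itgax is also counted among the dendritic cell genes below. C5ar1, the receptor for the complement fragment C5a, measured 75.0, 20.5 and 41.4 CPM in the libraries labelled WT and 10.8, 5.19 and 4.82 CPM in those labelled KO, without overlap and with an adjusted p of 0.0523, or 1.69e-04 with the block.

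Of 24 lysosomal genes tested, 21 had a negative log2 fold change, with a median of -0.65. In the test 3 fell, 1 rose and 20 did not pass, where 4.81% and 4.55% of all genes tested fell and rose, and 16 fell and 1 rose with the block. The genes that fell were Ctss, the protease that trims the invariant chain (-0.69 ± 0.16, adjusted p = 0.0411), the protease gene Lgmn (-1.02 ± 0.23, adjusted p = 0.0476) and Lamp1, a membrane protein gene (-0.84 ± 0.20, adjusted p = 0.0499). Ctsh, a cathepsin gene, rose (0.46 ± 0.09, adjusted p = 0.0240).

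The subunits of the NADPH oxidase, with which Cybb works, had a median log2 fold change of -0.01 over 6 genes. None fell, and Rac2, the small GTPase that activates the enzyme, rose by 0.73 ± 0.09 on the log2 scale (adjusted p = 0.00263). Of 14 targets and partners of the liver X receptors, Nr1h3, Mertk and Apoe among them, 2 fell and 1 rose, with a median of -0.28, while 6 fell and 2 rose with the block. Abcg1, a cholesterol exporter, measured 87.6, 50.1 and 77.1 CPM in the libraries labelled WT and 25.8, 23.3 and 28.3 CPM in those labelled KO and fell by 1.47 ± 0.21 (adjusted p = 0.00781). Apoc2, an apolipoprotein gene, fell by 1.88 ± 0.42 (adjusted p = 0.0319), while Scd1, a fatty acid desaturase gene, rose by 2.01 ± 0.31 (adjusted p = 0.0204).

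Markers of the remaining cell types were counted in the same way, with levels summed over all listed genes in the table. The shares over all genes tested were again 4.81% that fell and 4.55% that rose, and 12.8% and 7.96% with the block. Of 12 B cell genes, 6 rose and none fell, while 8 rose and 1 fell with the block, and their summed level was 6126 to 9047 CPM in the libraries labelled WT and 12131 to 13370 CPM in those labelled KO. T cell genes summed to 72.6 to 473 CPM and 72.5 to 122 CPM, with 1 of 13 falling, 6 with the block, and the highest library was WT 1. Dendritic cell genes summed to 1345 to 1509 CPM and 1146 to 1271 CPM, with 4 of 14 tested falling, 8 with the block. Of 5 tested NK cell genes 1 fell, 2 with the block, and Gzma, Gzmb and Klre1 were at or under 3 counts in every library labelled KO. None of 5 tested platelet and megakaryocyte genes passed, while 3 fell with the block. Of 12 immediate early genes, which respond soon after cells are handled, 5 fell and none rose, while 6 fell and 1 rose with the block. Their log2 fold change was negative in 8 of the 12, with a median of -0.32, and they summed to 1148 to 1174 CPM and 942 to 1048 CPM. The part of each cell type in the values of the monocyte and macrophage genes was not tested.

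At the level of transcripts, 13 of the 36 members had 1 transcript in the table and 23 had more. In F13a1 the leading transcript held 94.5% to 98.3% of the gene's counts in every library, and in Cybb it held 78.9% to 81.9%. In Ly6c2 the leading transcript held 73.0% to 88.0%, and in Ctsb 52.2% to 58.5%. In Ccr2 the share of its leading transcript ran from 0% to 73.5%, with 0% in the library labelled KO 3, although the gene had 227 counts there. These shares are estimates that divide reads between overlapping transcripts, and they were not tested.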

How the data were processed

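RNA was measured by sequencing in 6 libraries. Per the labels' protocols, splenic B cells were isolated with a kit and read in paired ends of 100 bases. Estimated counts per gene and transcript were deposited by the authors, unscaled per the file headers, and 5.87% of gene values were not whole. TPM, scaled to transcript length, was also deposited by the authors. HISAT2 2.0.4, Bowtie2 2.2.5, RSEM 1.3.1 and the mm10 build are named, without roles, in the submitters' processing notes; no stranded step is stated, so overlapping genes on opposite strands cannot be told apart. A further 24 per-library columns were not used.

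Estimated counts were rounded to whole numbers. Genes were filtered by group with edgeR 4.0.16 in R 4.3.3, which left 12234 of 16511, scaled by TMM and tested by quasi-likelihood (robust) on the label, with Benjamini-Hochberg adjustment over all genes and a threshold of 0.05. Standard errors were derived from the F statistic. The limit that a count of 0 allows, 3 counts, is 0.194 to 0.202 CPM per library and covers counting error only, since no molecular identifiers tell molecules from PCR copies.

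Deviations of same-numbered libraries from their group means correlated across genes at r = 0.133, 0.362 and 0.170. Between other numbers r was at most 0.0365. With 3 libraries per group, deviations from the group mean cancel each other, so these correlations are not independent. They cannot establish a pairing, and the labels do not state one. Treating the numbers as pairs is therefore an assumption taken from these same data. The replicate number as a block was an alternative fit, as were DESeq2 1.42.0, limma 3.58.1 (voom, and log2(TPM + 1) with a mean of at least 1 TPM), other scaling, no filter, and fits leaving out libraries, 15 in all. Replicates of one group differed by more than sampling noise in every pair.

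The members, their roles and all other lists were chosen with earlier results of these data known. Every member is named, with the values of other lists' genes limited to the 4 of smallest p at 1 CPM or more on average. Promoters came from RefSeq's table for GRCm38.p6; 16401 gene IDs matched RefSeq. The script was tested on simulated data.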

Additional observations from a re-analysis of the deposited data

How the results depend on the processing

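With all 15 alternatives, none gave a member that rose. The number of members that fell was 5 in the main test, 22 with DESeq2, 10 with limma on log2(TPM + 1), 2 with no filter on low counts, and 29 with the replicate block, which adds 24 members and loses none of the 5. It ranged from 1 to 18 when single libraries were left out. It was 1 without the libraries labelled WT 1 and KO 3 together and, in a fit chosen after seeing the data, 19 without WT 2 and KO 2 together. Over all genes, those called in either direction numbered 1146 in the main test, 2246 with DESeq2 and 886 with limma on log2(TPM + 1). They numbered 1005 with no filter, 2535 with the block and 264 to 2030 when single libraries were left out. Without WT 1 and KO 3 they were 567, and without WT 2 and KO 2 1167. The cause of these shifts was not tested, beyond fewer libraries in the fits that leave some out. Fcgr4 passed in all 15 alternatives, F13a1 in 9, Ccr2 in 8, and Ly6c2 and Fcgr1 in 7 each.

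Directions held for 33 of the 35 tested members. Cd163, at -0.05, turned to 0.15 with limma-voom, 0.11 with the replicate block, 0.048 on log2(TPM + 1) and 0.11 without WT 2 and KO 2, and ran from -0.93 to 1.20 when single libraries were left out. Cybb was at 0.066 without WT 1 and KO 3. The cause was not tested. Of 525 values of members over the alternatives, 406 kept their direction and side of the threshold. Depth limits Ace and Timd4 most, the members with the fewest counts.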
